A study of Mus musculus with 6 samples.

Results

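The 35 genes described here were chosen by name as genes of fast skeletal, slow skeletal and cardiac muscle, and all 35 were found among the 24391 genes of a count table from 6 mouse artery libraries. By role, 20 belong to fast fibres or to all skeletal fibres, 3 to slow skeletal fibres, 3 to skeletal and cardiac muscle alike, and 9 mainly to the heart. Of the 35, 26 encode proteins of the sarcomere itself. The other 9 serve striated muscle in other ways: Ckm and Eno3 in energy supply, Pvalb, Ryr1, Ryr2, Casq1, Atp2a1 and Cacna1s in calcium handling, and Nppa as a hormone. RNA was sequenced from brachiocephalic arteries, a branch of the aortic arch in which mice on a fatty diet form advanced plaques, of 3 Col15a1 -/- mice (KO 1 to KO 3) and 3 wild-type mice (WT 1 to WT 3). All 6 animals had a C57BL/6 background and ate a Western diet for 18 weeks. The series title calls the deletion of Col15a1, which encodes the chain of type XV collagen, specific to smooth muscle cells. The sample labels give the KO genotype as Col15a1 -/- and name no Cre line or promoter, and they give neither the age nor the sex of the animals. They describe the tissue as atherosclerotic lesion that mixes smooth muscle cells, epithelial cells, macrophages and others, and do not name striated muscle.

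The sarcomere is the repeating contractile unit of skeletal and cardiac muscle. Thick filaments of myosin pull on thin filaments of actin, the troponin complex (Tnnc, which binds calcium, Tnni, which inhibits, and Tnnt, which anchors to tropomyosin) switches the pull on when calcium is released, and titin (Ttn) and nebulin (Neb) hold the filaments in register. Fast fibres, slow fibres, atria and ventricles build it from different genes for the same parts, so the isoforms present tell the striated muscles apart. The smooth muscle of the artery wall uses its own actin and myosin (Acta2 and Myh11) and no troponin.

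Many muscle genes are switched on through a CArG box, the DNA element bound by serum response factor, which smooth, skeletal and cardiac muscle all use. Promoter sequences of 250 bases before to 50 after the start (RefSeq, GRCm38.p6) were matched to 30 of the 35 genes, and Actn3, Myoz1, Neb, Tnni2 and Tnnt3 had no entry. A CArG box, searched on both strands, was in 4 of the 30 promoters (13.3%) and in 425 of 27025 promoters of all genes (1.57%). A MEF2 box was in 5 of the 30 (16.7%), against 3.26% of all promoters, and an E-box (CANNTG), the element of the MyoD family, in 25 of the 30 (83.3%), against 72.1%. The 4 promoters with a CArG box are printed here in full, 5′ to 3′, because they belong to members of both kinds described below: Acta1 and Myh4 of skeletal muscle, and Actc1 and Myl7 of the heart. Capitals mark the CArG box, which lies 73 to 64 bases before the start in Acta1, 104 to 95 in Myh4, 47 to 38 in Actc1 and 61 to 52 in Myl7. The single MEF2 match in Myh4, 182 to 173 bases before the start, does not overlap its CArG box. These matches describe letters and say nothing of binding in these arteries.
Acta1 (chr8:123894726-123895025, minus strand): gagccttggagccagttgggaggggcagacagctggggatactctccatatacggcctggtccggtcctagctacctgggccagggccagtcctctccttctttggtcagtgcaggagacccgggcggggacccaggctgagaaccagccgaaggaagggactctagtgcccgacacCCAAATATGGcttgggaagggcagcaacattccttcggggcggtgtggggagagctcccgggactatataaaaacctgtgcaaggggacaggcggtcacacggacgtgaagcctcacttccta
Myh4 (chr11:67237562-67237861, plus strand): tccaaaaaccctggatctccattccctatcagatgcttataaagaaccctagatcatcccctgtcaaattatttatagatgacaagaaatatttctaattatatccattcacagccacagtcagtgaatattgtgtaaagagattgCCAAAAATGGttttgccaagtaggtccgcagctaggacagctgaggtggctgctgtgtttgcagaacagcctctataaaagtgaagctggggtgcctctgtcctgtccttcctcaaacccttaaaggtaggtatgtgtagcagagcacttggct
Actc1 (chr2:114052826-114053125, minus strand): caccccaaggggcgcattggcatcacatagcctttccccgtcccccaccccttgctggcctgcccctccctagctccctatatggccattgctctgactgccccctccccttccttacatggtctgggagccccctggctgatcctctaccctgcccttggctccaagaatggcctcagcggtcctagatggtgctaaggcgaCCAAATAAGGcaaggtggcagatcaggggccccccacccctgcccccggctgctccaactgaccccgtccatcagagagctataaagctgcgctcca
Myl7 (chr11:5898733-5899032, minus strand): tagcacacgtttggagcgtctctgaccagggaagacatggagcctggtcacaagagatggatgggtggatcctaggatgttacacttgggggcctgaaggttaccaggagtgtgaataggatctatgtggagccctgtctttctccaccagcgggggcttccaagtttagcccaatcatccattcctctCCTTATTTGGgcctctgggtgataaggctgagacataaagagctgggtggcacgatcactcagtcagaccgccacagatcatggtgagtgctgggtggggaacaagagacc

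Col15a1 itself had 4487, 4542 and 2307 counts in KO 1, KO 2 and KO 3, against 12629, 12111 and 12973 counts in WT 1, WT 2 and WT 3. Total counts per library ran from 23133078 to 26228384 in KO and from 22223584 to 26982005 in WT, so that 3 counts, the limit that a count of 0 allows, come to between 0.111 and 0.135 CPM (counts-per-million units) of these unscaled totals. Levels below are CPM scaled between libraries by the trimmed mean of M-values (TMM), on which 3 counts in WT 2 come to 0.10 CPM. On the leading axis of variation, which held 64.6% of the variance, KO 3 and WT 2 stood apart at 95.0 and 48.4, with the other 4 libraries between -38.6 and -33.7. The 8 sympathetic neuron markers moved with this axis and summed to 228, 180.3 and 5685 CPM in KO 1, KO 2 and KO 3, against 221, 2987 and 302 CPM in WT 1, WT 2 and WT 3. Of the cell types named in the labels, smooth muscle markers are given below, and the 6 macrophage markers summed to 477 to 820.5 CPM in KO and 1132 to 1196 CPM in WT. The median fold changes of the fast and of the cardiac genes, and the fold changes of Ttn, Tnnc1 and Ryr2, are given with and without KO 3 and WT 2.

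Striated muscle transcripts were detected in every artery, and KO 1 was far above the other 5 libraries. Together the 35 genes took 0.175%, 0.0603% and 0.0454% of all counts in KO 1, KO 2 and KO 3, against 0.0391%, 0.0258% and 0.0414% in WT 1, WT 2 and WT 3. Every KO library was above every WT library in this sum, KO 3 by a narrow margin over WT 3, and WT 2 was lowest. The margin of KO 3 over WT 3 rested on Ryr2, which is not particular to striated muscle and is described below. Ryr2 held 5815 of the 11910 member counts in KO 3, more than Ttn, against 2806 of 11160 in WT 3. In bulk RNA of this kind, more striated muscle cells and more RNA per such cell cannot be told apart. The giant gene Ttn alone made up 51.3%, 33.3% and 24.8% of the members' counts in KO 1, KO 2 and KO 3, against 14.8%, 22.8% and 36.7% in WT 1, WT 2 and WT 3. Scaled by exon length to TPM (transcripts-per-million units), which allows genes to be compared, the highest members averaged over 6 libraries were Acta1 at 30.5, Myl1 at 25.1, Ryr2 at 23.8, Tnni2 at 23.5 and Tnnt3 at 22.5 TPM. For scale, the smooth muscle actin Acta2 averaged 2431 TPM.

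KO 1 held the highest level in 21 of the 35 genes, KO 2 in 10, KO 3 in 2 and WT 3 in 2, and WT 2 held the lowest in 20. The heatmap of all members shows that these extremes split by the muscle type of the gene. Fast and pan-skeletal genes peaked in KO 1, with WT 1 next, while cardiac genes peaked in KO 2, with WT 3 next.

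**Figure D1:**
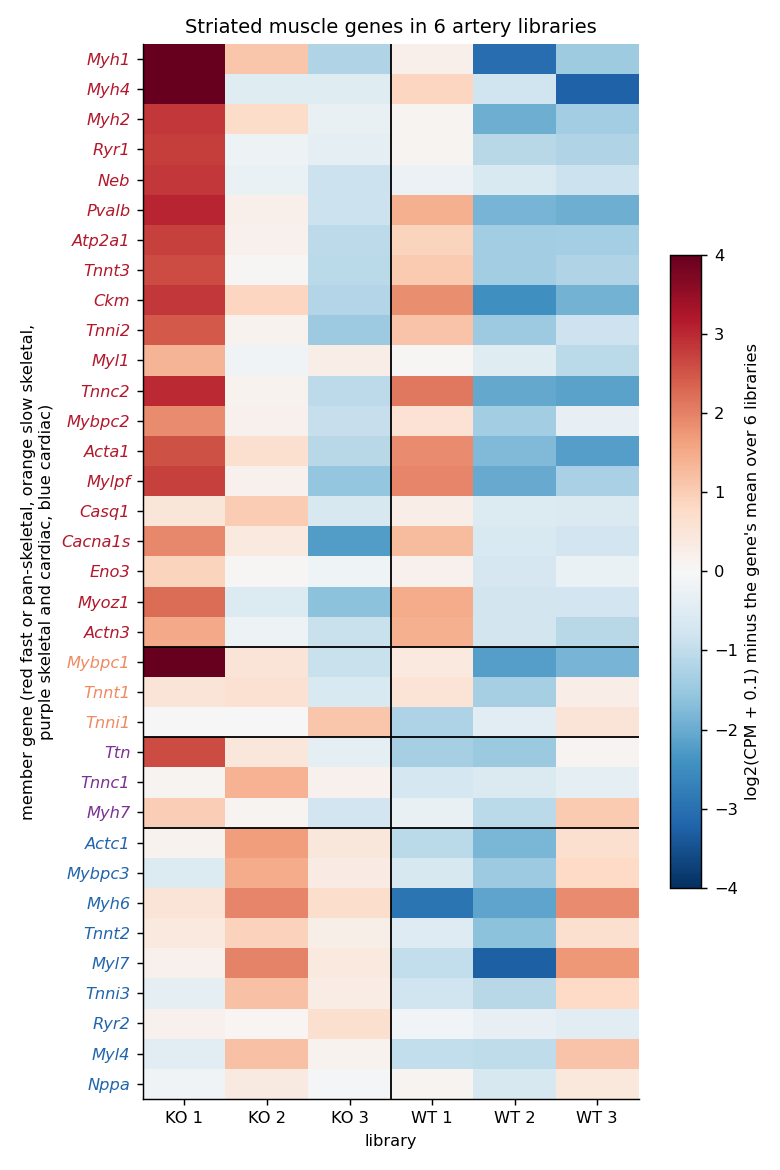
Level of each member (rows, coloured by role) in each library (columns, KO left of WT) as log2(CPM + 0.1) minus the gene's mean over the 6 libraries. KO 1 is the highest library in 19 of the 20 fast or pan-skeletal genes and KO 2 in 7 of the 9 cardiac genes.

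Among the 20 fast and pan-skeletal genes, KO 1 was highest in 19, with WT 1 next in 16 of the 20, and the summed level was 615, 115 and 61.7 CPM in KO 1, KO 2 and KO 3, against 180.2, 47.6 and 45.8 CPM in WT 1, WT 2 and WT 3. Both genotypes thus held 1 library well above its other libraries, and in 0 of the 20 genes was every KO library above every WT library, against 8.33% of all genes tested, or below, against 8.38%. Acta1, the actin of the skeletal thin filament (chromosome 8, 126415658 to 126418675, mm9), was at 53.3, 14.1 and 4.10 CPM in KO 1, KO 2 and KO 3, against 33.6, 2.59 and 1.85 CPM in WT 1, WT 2 and WT 3. KO 1 and WT 1 were high and the groups overlapped, with a mean of 23.8 ± 26.0 CPM in KO and 12.7 ± 18.1 CPM in WT (SD, n = 3 each). The log2 fold change of KO over WT was 0.91 (SE 1.36, adjusted p = 0.914 by edgeR's quasi-likelihood test).

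The fast troponins followed the same order of libraries. Tnnt3, which anchors troponin to tropomyosin, was at 33.5, 5.63 and 2.52 CPM in KO 1, KO 2 and KO 3, against 11.3, 2.02 and 2.32 CPM in WT 1, WT 2 and WT 3 (log2 fold change 1.41, SE 1.14, edgeR adjusted p = 0.811). Tnni2, the inhibitory subunit, was at 19.6, 3.84 and 1.22 CPM in the KO libraries, against 7.73, 1.21 and 1.93 CPM in the WT libraries in the same order (1.19, SE 1.14, adjusted p = 0.857). Tnnc2, the calcium-binding subunit, was at 14.4, 1.92 and 0.79 CPM in KO 1, KO 2 and KO 3, against 7.73, 0.34 and 0.31 CPM in WT 1, WT 2 and WT 3 (1.04, SE 1.56, adjusted p = 0.914). In each of the fast troponins KO 1 was highest, WT 1 next and KO 2 after it, and the groups overlapped. Tnni2 and Tnnt3 are also neighbours, starting at 149628373 and 149684741 on chromosome 7 (mm9).

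Myl1, the essential light chain of fast myosin, had a narrower spread. It was at 23.8, 8.33 and 10.9 CPM in KO 1, KO 2 and KO 3, against 9.50, 6.49 and 4.29 CPM in WT 1, WT 2 and WT 3 (log2 fold change 1.08, SE 0.48, edgeR adjusted p = 0.632). Only WT 1 reached into the range of the KO libraries, above KO 2. Eno3, the muscle enolase of glycolysis, was at 21.0, 11.7 and 10.2 CPM in KO 1, KO 2 and KO 3, against 12.8, 7.13 and 9.51 CPM in WT 1, WT 2 and WT 3 (0.54, SE 0.35, adjusted p = 0.745). Its highest library was 2.94 times its lowest, against 28.7 times for Acta1, and the groups overlapped. Of the words of 50 bases in Myl1 transcripts, 11.7% also occur in the pseudogene Mylf-ps (GENCODE, GRCm38), so reads of those stretches that align to both places were left uncounted and its level is uncertain.

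The other 14 fast and pan-skeletal genes had edgeR adjusted p-values between 0.617 and 0.959, and their highest library was between 3.20 times (Casq1) and 242 times (Myh1) their lowest. Casq1, which stores calcium in the sarcoplasmic reticulum, was the exception to the lead of KO 1, at 11.4, 16.7 and 5.20 CPM in KO 1, KO 2 and KO 3, against 9.91, 5.61 and 5.53 CPM in WT 1, WT 2 and WT 3. The fast myosin heavy chains are given here in turn, a choice made after their values were seen. Myh4 (type IIb) was at 135, 5.24 and 5.24 CPM in KO 1, KO 2 and KO 3, against 13.4, 4.24 and 0.70 CPM in WT 1, WT 2 and WT 3. Myh1 (type IIx) was at 56.9, 5.80 and 1.10 CPM in the KO libraries, against 3.05, 0.24 and 0.93 CPM in the WT libraries in the same order. Myh2 (type IIa) was at 17.5, 4.01 and 1.93 CPM in KO 1, KO 2 and KO 3, against 2.59, 0.54 and 0.85 CPM in WT 1, WT 2 and WT 3. KO 1 stood highest in all 3 genes, and in Myh1 and Myh2 the next library was KO 2 and not WT 1.

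The calcium release channel of skeletal muscle, Ryr1, was at 18.2, 2.23 and 2.01 CPM in KO 1, KO 2 and KO 3, against 2.82, 1.14 and 1.08 CPM in WT 1, WT 2 and WT 3. Atp2a1, the pump that returns calcium to the store, was at 53.5, 8.90 and 3.79 CPM in the KO libraries, against 14.9, 2.99 and 3.01 CPM in the WT libraries in the same order. Both were highest in KO 1 and next in WT 1, and in both the groups overlapped. Pvalb, a soluble calcium buffer, Ckm, the muscle creatine kinase, and Mylpf, the regulatory light chain of fast myosin, reached 13.1, 16.7 and 13.5 CPM in KO 1. In WT 1 these genes were at 4.18, 8.50 and 7.87 CPM, and in WT 2 and WT 3 each was under 1 CPM. Neb, Mybpc2 (fast myosin-binding protein C), Myoz1 and Actn3 (Z-disc proteins) and Cacna1s (the voltage sensor) reached 80.8, 14.0, 5.95, 9.70 and 3.79 CPM in KO 1, against 9.69, 5.64, 3.55, 9.14 and 2.36 CPM in WT 1. Cacna1s had 3 counts in KO 3, which is at the limit that a count of 0 allows.

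**Figure D2:**
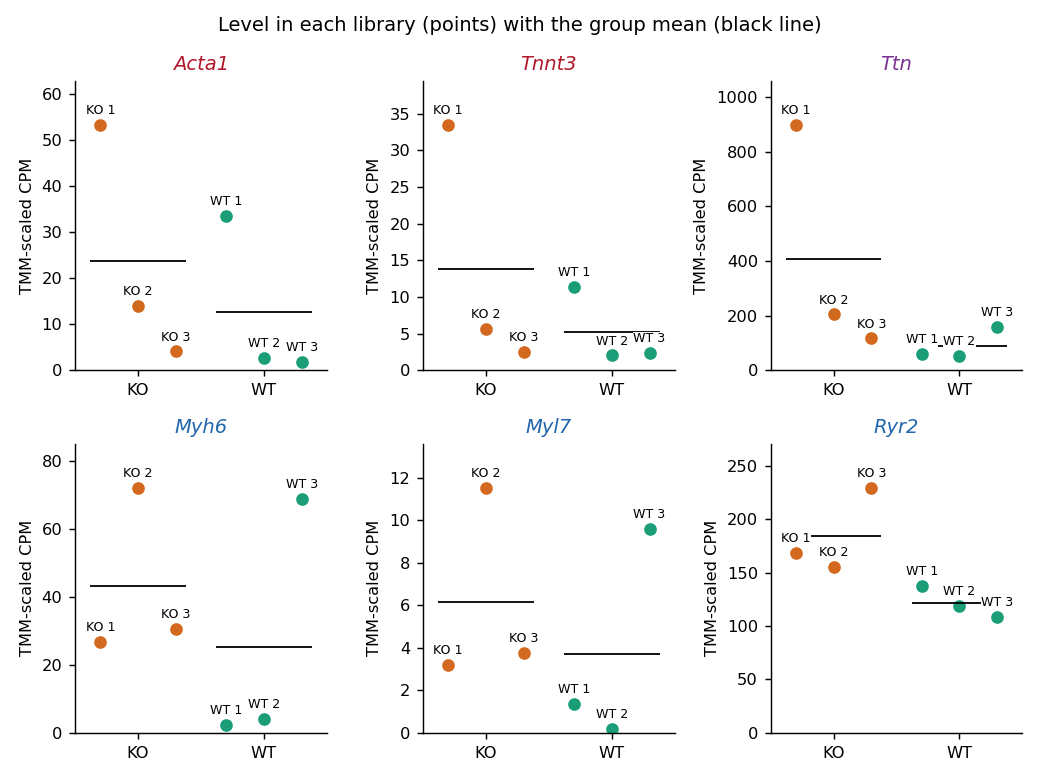
TMM-scaled CPM of 6 members in each library (points, KO left of WT, axis from 0), with the mean of each group as a line. Acta1 and Tnnt3 are highest in KO 1 and next in WT 1, Myh6 and Myl7 are highest in KO 2 and next in WT 3, and Ryr2 has 155 to 229 CPM in KO and 108 to 137 CPM in WT.

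Adipocyte markers also peaked in KO 1, in 7 of the 8 genes listed, and summed to 1302, 886 and 991 CPM in KO 1, KO 2 and KO 3, against 831, 266 and 623 CPM in WT 1, WT 2 and WT 3. WT 1 was below every KO library in this sum, unlike in the fast muscle genes. All 8 adipocyte markers had counts in every library, and the part of adipose tissue around the vessel in the fast muscle levels was not tested. The 10 smooth muscle markers summed to 10196, 16177 and 6571 CPM in KO 1, KO 2 and KO 3, against 10925, 6157 and 8527 CPM in WT 1, WT 2 and WT 3. Smooth muscle markers were highest in KO 2 in 9 of the 10 genes and were similar in KO 1 and WT 1, so their order of libraries differed from that of the fast muscle genes.

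Of the slow skeletal genes, Tnnt1 and Tnni1 were low in every library. Tnnt1, slow troponin T, was at 0.99, 1.05 and 0.39 CPM in KO 1, KO 2 and KO 3, against 1.00, 0.20 and 0.81 CPM in WT 1, WT 2 and WT 3 (log2 fold change 0.28, SE 0.66, edgeR adjusted p = 0.924). Tnni1, slow troponin I, had 8, 8 and 22 counts in the KO libraries, against 2, 7 and 14 counts in the WT libraries, and was the 1 member of the 35 that did not pass the filter on low counts. Neither gene shared the lead of KO 1, and in both the groups overlapped. Mybpc1, slow myosin-binding protein C, which fast fibres also make, did share it, at 14.7, 1.22 and 0.39 CPM in KO 1, KO 2 and KO 3, against 1.09, 0.10 and 0.15 CPM in WT 1, WT 2 and WT 3. Its levels in WT 2 and WT 3 rest on 3 and 4 counts, the next highest library was KO 2, and the groups overlapped (log2 fold change 3.63, SE 1.60, edgeR adjusted p = 0.630). Without KO 1 the log2 fold change was 0.83, and without WT 1 it was 5.37.

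The 3 genes shared by skeletal and cardiac muscle each followed their own order. Ttn, the elastic scaffold that spans from Z-disc to M-band (chromosome 2, 76542041 to 76820604, mm9), was at 898, 205 and 116 CPM in KO 1, KO 2 and KO 3, against 58.3, 53.4 and 158 CPM in WT 1, WT 2 and WT 3. KO 1 was highest and KO 2 next, and the groups overlapped, since WT 3 was above KO 3. The log2 fold change was 2.18 (SE 0.88), with an unadjusted p of 0.0475 and an adjusted p of 0.617 by edgeR. Without KO 1 the log2 fold change was 0.77, and without KO 3 and WT 2 it was 2.34.

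Tnnc1, the troponin C of slow fibres and heart, was low, at 20, 51 and 23 counts in KO 1, KO 2 and KO 3, against 10, 15 and 15 counts in WT 1, WT 2 and WT 3. In CPM it was at 0.86, 2.23 and 0.91 in the KO libraries and at 0.45, 0.50 and 0.58 in the WT libraries, so the groups did not overlap (log2 fold change 1.36, SE 0.46, unadjusted p = 0.0256, adjusted p = 0.587 by edgeR). KO 2 stood highest and KO 1 and KO 3 were close to each other, and without KO 3 and WT 2 the log2 fold change was 1.55. Myh7, the myosin heavy chain of slow fibres and ventricle, was at 1.03, 0.52 and 0.24 CPM in KO 1, KO 2 and KO 3, against 0.36, 0.17 and 1.08 CPM in WT 1, WT 2 and WT 3. KO 1 and WT 3 were its highest libraries and the groups overlapped (0.15, SE 0.82, adjusted p = 0.962).

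The cardiac genes, apart from the calcium channel Ryr2 and the hormone Nppa, were highest in KO 2 and next in WT 3 in 7 of the 9. Without Ryr2 their summed level was 50.2, 133 and 59.5 CPM in KO 1, KO 2 and KO 3, against 16.1, 12.3 and 116 CPM in WT 1, WT 2 and WT 3. Myh6, the atrial myosin heavy chain, which in the mouse is also that of the adult ventricle, was at 26.7, 72.0 and 30.4 CPM in KO 1, KO 2 and KO 3, against 2.36, 4.20 and 68.9 CPM in WT 1, WT 2 and WT 3. The mean was 43.1 ± 25.1 CPM in KO and 25.1 ± 37.9 CPM in WT (SD, n = 3 each). KO 2 and WT 3 were nearly equal, all 3 KO libraries were above WT 1 and WT 2, and the groups overlapped (log2 fold change 0.78, SE 1.25, edgeR adjusted p = 0.917). The log2 fold change was 0.18 without KO 2 and 3.62 without WT 3.

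Myl7, the atrial regulatory light chain, was at 3.19, 11.5 and 3.75 CPM in KO 1, KO 2 and KO 3, against 1.36, 0.20 and 9.58 CPM in WT 1, WT 2 and WT 3 (log2 fold change 0.73, SE 1.24, edgeR adjusted p = 0.922). Myl4, the atrial essential light chain, was at 3.88, 12.3 and 5.91 CPM in the KO libraries, against 2.68, 2.62 and 11.9 CPM in the WT libraries in the same order (0.36, SE 0.74, adjusted p = 0.924). Both atrial light chains were highest in KO 2 with WT 3 next, and WT 2 was lowest in both. Myl2 and Myl3, the ventricular light chains from the list of other striated muscle genes, were at no more than 0.55 and 0.52 CPM in any library and did not pass the filter. Myh7, the other ventricular myosin, made up no more than 1.79% of the myosin heavy chain counts described below. Since Myh6 is also the myosin of the adult mouse ventricle, as given above, that share does not tell atrium from ventricle.

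The cardiac troponins followed the same order. Tnnt2 was at 7.98, 11.7 and 7.22 CPM in KO 1, KO 2 and KO 3, against 4.23, 1.88 and 9.62 CPM in WT 1, WT 2 and WT 3 (log2 fold change 0.77, SE 0.58, edgeR adjusted p = 0.795). Tnni3 was at 2.50, 7.42 and 4.02 CPM in the KO libraries, against 1.82, 1.45 and 5.64 CPM in the WT libraries in the same order (0.65, SE 0.65, adjusted p = 0.864). KO 2 was highest and WT 3 next in both, and the groups overlapped. Of the remaining cardiac genes, Actc1, the actin of the cardiac thin filament, and Mybpc3, cardiac myosin-binding protein C, peaked in KO 2 at 11.7 and 6.02 CPM, with 5.60 and 3.75 CPM in WT 3. Nppa, the atrial natriuretic peptide, which atrial muscle makes in large amounts, was at 0.52, 0.79 and 0.55 CPM in KO 1, KO 2 and KO 3, against 0.64, 0.34 and 0.81 CPM in WT 1, WT 2 and WT 3. It spanned 2.41 times between its extreme libraries, against 57.1 times for Myl7 and 30.4 times for Myh6.

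Thymocyte markers were highest in the same libraries as the cardiac genes. The 8 genes summed to 16.2, 33.9 and 5.28 CPM in KO 1, KO 2 and KO 3, against 11.2, 11.4 and 23.8 CPM in WT 1, WT 2 and WT 3, with KO 2 highest in 5 of the 8 and WT 3 in 2. Rag1, which cuts antigen receptor genes in thymocytes, ran from 1.34 CPM in KO 3 up to 14.9 CPM in KO 2, and among the WT libraries from 0.27 CPM in WT 2 up to 6.57 CPM in WT 3. Ptcra was at 0 in KO 1, WT 1 and WT 2 and Rag2 in WT 2, while the thymic epithelium gene Foxn1 was at 0 in all 6 libraries. The 6 genes of thymic epithelium summed to between 2.76 and 6.63 CPM in KO and between 2.09 and 2.55 CPM in WT. Smooth muscle markers, given above, were also highest in KO 2 but not next in WT 3. The part of thymic tissue or of smooth muscle in the cardiac levels was not tested.

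Ryr2, the calcium release channel of heart muscle (chromosome 13, 11645370 to 12199212, mm9), stood apart from the other cardiac genes. It was at 169, 155 and 229 CPM in KO 1, KO 2 and KO 3, against 137, 119 and 108 CPM in WT 1, WT 2 and WT 3, a span of only 2.11 times between the extreme libraries. Every KO library was above every WT library, with a mean of 184 ± 39.4 CPM in KO and 122 ± 14.6 CPM in WT (SD, n = 3 each). The log2 fold change was 0.60 (SE 0.18), with an unadjusted p of 0.0171 and an adjusted p of 0.587 by edgeR, so it did not pass the threshold of 0.05. Without KO 3 and WT 2 the log2 fold change was 0.39. Smooth muscle cells and neurons also make Ryr2, and its highest library, KO 3, was the one with the most sympathetic neuron transcripts, given above, while WT 2, next in those transcripts, lay between WT 1 and WT 3 in Ryr2. Their part in the level was not tested. Per exon length Ryr2 averaged 23.8 TPM, close to Acta1 and far above its skeletal partner Ryr1 at 0.79 TPM.

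Counts of the myosin heavy chain genes Myh1, Myh2, Myh4, Myh7 and Myh6 can be set against each other within a library, because their exon lengths are nearly the same (6019 to 6083 bases). These 5 genes had 5489, 2007 and 988 counts in KO 1, KO 2 and KO 3, against 479, 279 and 1874 counts in WT 1, WT 2 and WT 3. Myh6, the cardiac form, made up 11.3% (95% Wilson interval 10.5 to 12.2), 82.2% (80.5 to 83.8) and 78.1% (75.5 to 80.6) of them in KO 1, KO 2 and KO 3. In the WT libraries it made up 10.9% (8.38 to 14.0), 44.8% (39.1 to 50.7) and 95.1% (94.0 to 96.0) in the same order. Myosin was thus mainly of the fast skeletal forms in KO 1 and WT 1, mainly cardiac in KO 2, KO 3 and WT 3, and nearly even in WT 2. The intervals cover counting error of reads only, and the range within each genotype spans most of the scale.

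**Figure D3:**
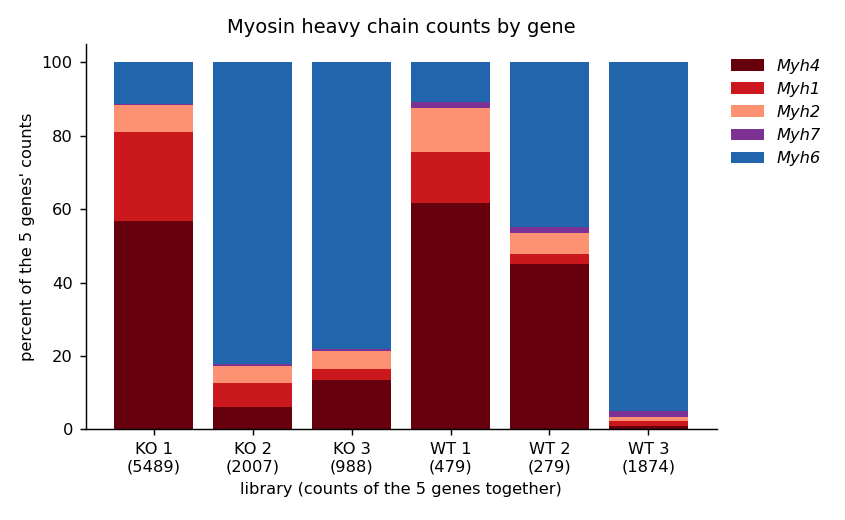
Share of each gene in the counts of 5 myosin heavy chain genes in each library (bars, KO left of WT), with the counts of the 5 genes together under each bar. Myh6, the cardiac form, is at 11.3% and 10.9% in KO 1 and WT 1, at 82.2%, 78.1% and 95.1% in KO 2, KO 3 and WT 3, and at 44.8% in WT 2.

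The fast forms were not in a fixed proportion either. Myh4 made up 56.8%, 5.98% and 13.5% of the 5 genes' counts in KO 1, KO 2 and KO 3, against 61.6%, 45.2% and 0.961% in WT 1, WT 2 and WT 3. Myh1 made up 24.0%, 6.63% and 2.83% in the KO libraries, against 14.0%, 2.51% and 1.28% in the WT libraries in the same order. Myh4 exceeded Myh1 in KO 1, KO 3, WT 1 and WT 2, and the pair was near parity in KO 2 and WT 3. Myh2, Myh1 and Myh4 lie in tandem between positions 66984529 and 67073949 of chromosome 11, and Myh6 and Myh7 are neighbours between 55560758 and 55613386 of chromosome 14 (mm9). These neighbours are near copies: 25.4% of the words of 50 bases in Myh1 transcripts, 22.9% in Myh2, 20.2% in Myh6, 18.9% in Myh4 and 15.6% in Myh7 also occur in another gene's transcripts (GENCODE, GRCm38). Reads with more than 1 place to align were left out of the counts, so the level of each is uncertain to that extent.

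Pairs of genes with the same task shared the low cardiac part of KO 1 and WT 1 seen in the myosins. The other libraries differed from pair to pair: in KO 2 Actc1 had fewer counts than Acta1, although Myh6 led the myosins. Cardiac Tnni3 had 0.127, 1.93 and 3.29 times the counts of fast Tnni2 in KO 1, KO 2 and KO 3, against 0.235, 1.19 and 2.92 times in WT 1, WT 2 and WT 3. For cardiac Tnnt2 over fast Tnnt3 the ratios were 0.238, 2.07 and 2.86 in the KO libraries, against 0.373, 0.933 and 4.15 in the WT libraries in the same order. Cardiac Actc1 over skeletal Acta1 stood at 0.0745, 0.832 and 1.21 in KO 1, KO 2 and KO 3, against 0.0488, 0.364 and 3.02 in WT 1, WT 2 and WT 3. Each of the 3 ratios was lowest in KO 1 and WT 1, and the groups overlapped in each. The exon length of a gene is the same in every library, so these ratios of counts can be compared between libraries.

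KO 1 and WT 1, the libraries richest in fast muscle genes, differed in which fast, slow and shared members they held. Acta1 was only 1.59 times as high in KO 1 as in WT 1, whereas Myh1 was 18.7 times and Ttn 15.4 times as high. Grouped by exon length, the 26 members outside the cardiac group had a median ratio of KO 1 over WT 1 of 1.88 in 14 genes under 2000 bases (0.991 to 3.79), 3.04 in 4 genes of 2000 to 4000 bases (1.06 to 13.5) and 7.54 in 8 longer genes (1.60 to 18.7). Over all genes tested the medians in the same length classes were 0.948, 0.999 and 1.04. KO 2 over WT 1 had medians of 0.497, 0.671 and 1.21 in the members and 0.994, 1.00 and 1.02 over all genes. The cardiac genes, left out of these classes, also differed between KO 1 and WT 1. Myh6 (6079 bases) was at 26.7 and 2.36 CPM in KO 1 and WT 1, and the short Myl7 at 3.19 and 1.36 CPM. The long Ryr2 and Mybpc3 differed less, at 169 and 1.42 CPM in KO 1 and 137 and 1.32 CPM in WT 1. The part of cardiac RNA in the Ttn ratio was not tested. The counts of Myh1, Myh2 and Myh4 together over those of Acta1 were 3.92, 1.07 and 2.02 in KO 1, KO 2 and KO 3, against 0.568, 1.94 and 1.33 in WT 1, WT 2 and WT 3, so that WT 1 was the library with the least fast myosin per skeletal actin. These ratios set single libraries side by side and have no replicate check.

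**Figure D4:**
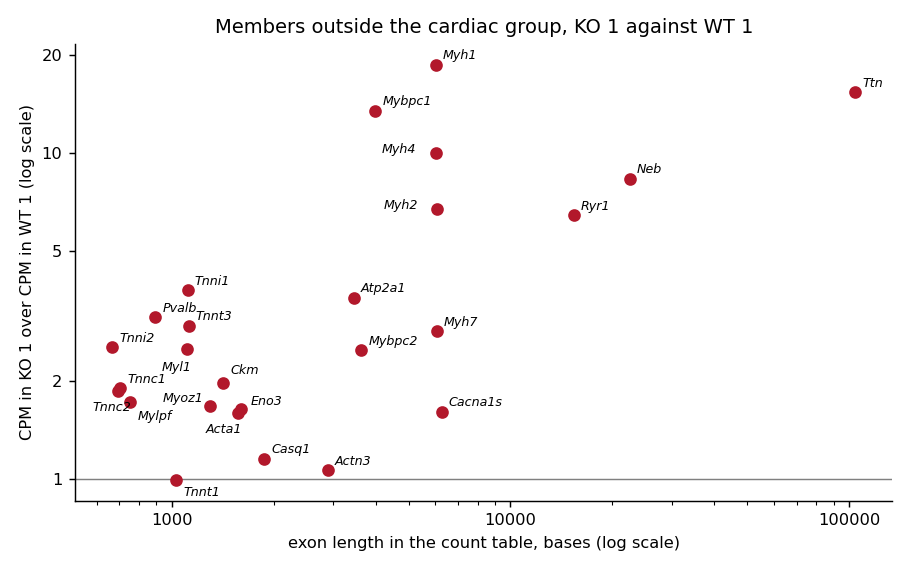
CPM in KO 1 over CPM in WT 1 (log scale) against exon length (log scale) for the 26 members outside the cardiac group (points), with a line at equal levels. Genes under 2000 bases lie between 0.991 and 3.79 times, and Myh1, Ttn, Mybpc1, Myh4, Neb, Myh2 and Ryr1 are the highest points.

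The comparison of KO with WT asked whether loss of Col15a1 went with a change in these genes. Of the 35, 34 passed the filter and were tested, and all 34 had a log2 fold change above 0, with a median of 0.96, while 60.9% of all 15937 genes tested were above 0, with a median of 0.068. This direction was not particular to the members. Above 0 were also 8 of 8 adipocyte, 7 of 7 brown fat, 8 of 8 sympathetic neuron and 9 of 10 smooth muscle markers tested. Their medians were 0.80, 0.98, 0.78 and 0.35. Of the thymic epithelium, thymocyte and macrophage markers tested, 2 of 2, 3 of 7 and 0 of 6 were above 0. With an adjusted p under 0.05, edgeR called none of the 34, with a smallest adjusted p of 0.587, and none of all genes tested (0%). At an unadjusted p under 0.05 by edgeR, 4 of the 34 were higher in KO (Myh2, Ttn, Tnnc1 and Ryr2) and none lower. Of all genes 4.02% were higher, a smaller share than that of the members, and 3.98% lower. Without KO 1 the number was 2 of 35, a smaller share than the 8.23% of all genes in either direction. Without KO 3 and WT 2 it was 9 of 34, a larger share than the 10.2% of all genes. DESeq2 also called none of the members, with an adjusted p not given for Myh4 and Myh6, against 0.169% of all genes called higher and 0.123% lower, and limma-voom called none. The number of members with an unadjusted p under 0.05 was 9 by DESeq2, of 33 to which it gave a p, a larger share than the 7.33% of all genes. By limma-voom it was 2, a smaller share of the 34 than the 8.81% of all genes. Every KO library was above every WT library in Tnnc1 and Ryr2, which is 5.88% of the 34, against 8.33% of all genes tested in that direction and 8.38% in the other. A share of this size is no larger than that of all genes. The animals are 3 per group by the series design, and the p-values set the difference between KO and WT against the spread within the groups.

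The direction of the skeletal genes rested on KO 1. In the 20 fast and pan-skeletal genes the median log2 fold change was 1.14 (0.19 to 3.94), with all 20 above 0. Without KO 1 it was -0.29, with 6 of the 20 above 0, while the median of all genes without KO 1 was 0.0095. Tnnc2 was then at -1.07, Tnni2 at -0.56, Acta1 at -0.52 and Tnnt3 at -0.40, whereas Myl1 was at 0.44 and Myh1 at 1.26. Without WT 1 the median was 2.71, and without KO 3 and WT 2 it was 1.23.

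In the 9 cardiac genes the median log2 fold change was 0.73, with all 9 above 0, and 0.88 without KO 1. It was 0.13 without KO 2, 1.49 without WT 3 and 0.40 without KO 3 and WT 2. The plot of fold changes with and without KO 1 shows that leaving it out shifted every fast gene to the left and left the cardiac genes in place or shifted them to the right. Over all members, 19 of the 34 were above 0 without KO 1, with a median of 0.10, and the median was 0.99 without KO 3 and WT 2.

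**Figure D5:**
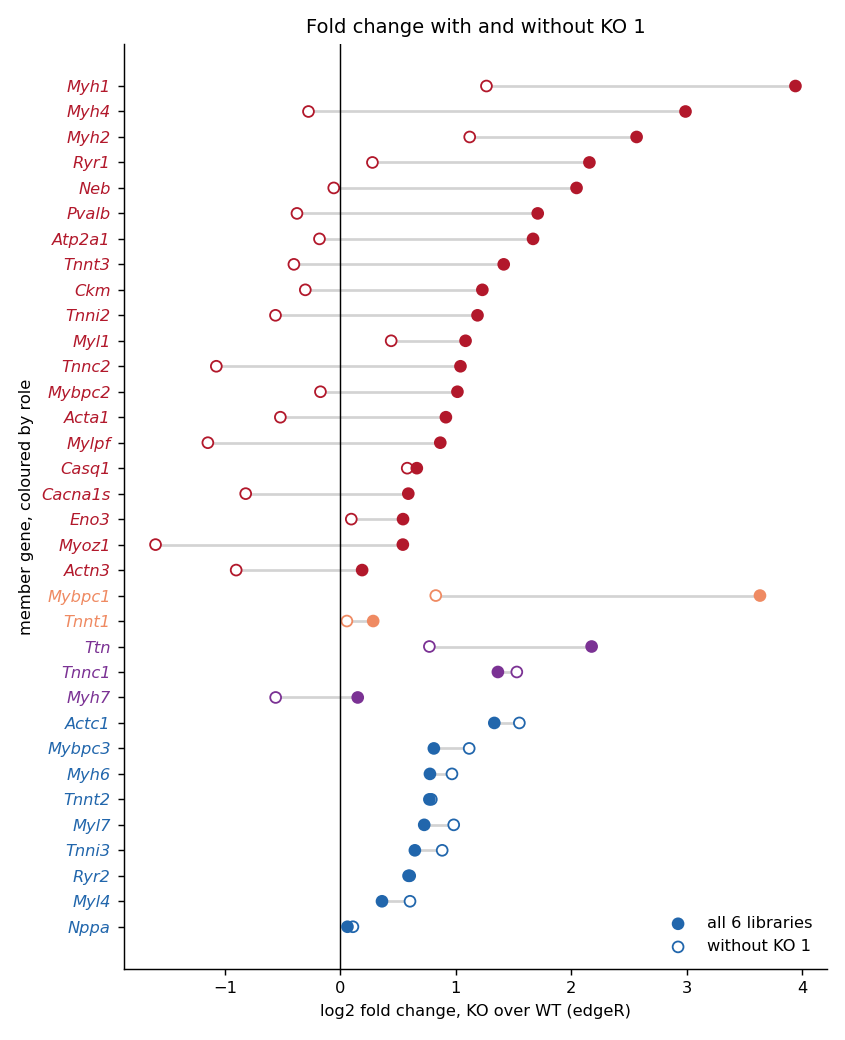
Log2 fold change of KO over WT by edgeR for the 34 members tested (rows, coloured by role) with all 6 libraries (filled) and without KO 1 (open). In the 20 fast or pan-skeletal genes the median is 1.14 with all libraries and -0.29 without KO 1, and in the 9 cardiac genes it is 0.73 and 0.88.

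Further genes of striated muscle gave a broader view of the same libraries. Of 71 others listed by role, 50 passed the filter, with 44 above 0 and 6 below 0 on the log2 scale, against 60.9% of all genes tested above 0, and a median of 0.65 (0.67 without KO 3 and WT 2). At an unadjusted p under 0.05, 8 were higher in KO and none lower, against 4.02% and 3.98% of all genes tested, and edgeR called none, with a smallest adjusted p of 0.587. DESeq2 called 1 of them, Fabp3, which carries fatty acids in heart and fat, with an adjusted p of 0.0461. All 3 KO libraries were above all 3 WT libraries in 10 of the 50, against 8.33% of all genes tested, and below them in 1, Mybph, which can bind myosin, against 8.38%. Not all genes of this list followed the members. Kcnj3 and Tbx20 were highest in KO 3 (47.4 and 163 CPM) and next in WT 2 (31.3 and 119 CPM), as the sympathetic neuron markers were. In the other libraries they were at no more than 4.60 and 43.7 CPM. The part of other tissues in this list was not tested.

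In the energy metabolism group all 8 tested genes were above 0, with a median log2 fold change of 1.22 (0.84 without KO 3 and WT 2), and in 5 of them every KO library was above every WT library, against 8.33% of all genes tested. Fabp3 was at 24.0, 28.1 and 52.4 CPM in KO 1, KO 2 and KO 3, against 16.7, 11.8 and 12.3 CPM in WT 1, WT 2 and WT 3 (1.36, SE 0.33, edgeR adjusted p = 0.587). Cox7a1, a subunit of cytochrome oxidase in heart, muscle and brown fat, was at 18.1, 16.2 and 17.8 CPM in the KO libraries, against 10.1, 3.13 and 8.81 CPM in the WT libraries in the same order (1.24, SE 0.42, adjusted p = 0.587). Ckmt2, the mitochondrial creatine kinase, was at 3.36, 3.75 and 1.38 CPM in KO 1, KO 2 and KO 3, against 0.82, 0.20 and 0.54 CPM in WT 1, WT 2 and WT 3 (2.45, SE 0.62, adjusted p = 0.587). KO 1 did not lead in Fabp3, where KO 3 was highest, and the KO libraries were nearly equal in Cox7a1. The 7 brown fat markers summed to 589.7, 653 and 672 CPM in KO 1, KO 2 and KO 3, against 473, 203 and 381 CPM in WT 1, WT 2 and WT 3, with Ucp1, the heat-producing uncoupler, at 192 to 289 CPM in KO and 25.3 to 121 CPM in WT. All 7 had counts in every library, and the part of brown fat in the energy genes was not tested.

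The structural genes varied less clearly. In the thin filament and Z-disc group 17 of 19 tested were above 0, with a median of 0.65. Smpx, a small protein of the costamere, and Lmod2, a nucleator of cardiac actin, were at 0.60, 1.31 and 0.79 CPM and at 0.78, 1.13 and 0.83 CPM in KO 1, KO 2 and KO 3. In WT 1, WT 2 and WT 3 they were at 0.18, 0.067 and 0.46 CPM and at 0.45, 0.13 and 0.46 CPM, below every KO library (log2 fold changes 1.91 and 1.39, SE 0.69 and 0.51, edgeR adjusted p = 0.595 and 0.599). In the thick filament and M-band group, where 4 of 9 were tested, the M-band genes Myom2, Myom1 and Myom3 had log2 fold changes of 1.59, 0.53 and 0.41 (SE 0.71, 0.28 and 0.33, edgeR adjusted p = 0.632, 0.688 and 0.807), and the groups overlapped in each. Myom2 was at 5.43, 2.88 and 1.50 CPM in KO 1, KO 2 and KO 3, against 0.73, 0.47 and 2.05 CPM in WT 1, WT 2 and WT 3, and Myom3 spanned 2.16 to 2.72 CPM in KO and 1.14 to 2.43 CPM in WT. Myom1 was far the most abundant of them per length, at 203 TPM on average against 1.15 TPM for Myom2, and had 591, 568 and 391 CPM in KO 1, KO 2 and KO 3, against 463, 244 and 364 CPM in WT 1, WT 2 and WT 3. That average was also far above Acta1, the highest member, at 30.5 TPM. Myom1 spanned only 2.42 times between its extreme libraries, against 28.7 times for Acta1, and the part of other tissues in its level was not tested.

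Among the genes that link excitation to calcium release, 13 of 15 tested were above 0, with a median of 0.65. Jph1, which tethers the surface membrane to the calcium store, was at 8.80, 6.24 and 6.86 CPM in KO 1, KO 2 and KO 3, against 4.73, 4.71 and 4.33 CPM in WT 1, WT 2 and WT 3 (log2 fold change 0.67, SE 0.19, edgeR adjusted p = 0.587). Pln, the phospholamban that restrains the calcium pump in heart and smooth muscle, was at 14.1, 18.4 and 14.8 CPM in the KO libraries, against 13.0, 6.76 and 10.2 CPM in the WT libraries in the same order (0.66, SE 0.26, adjusted p = 0.617). In both genes the KO libraries were above the WT libraries. Hrc, a calcium-binding protein of the store, was at 5.04, 6.55 and 3.00 CPM in KO 1, KO 2 and KO 3, against 2.91, 1.68 and 3.21 CPM in WT 1, WT 2 and WT 3, a log2 fold change of 0.90 (SE 0.39, adjusted p = 0.626) with overlap between KO 3 and WT 3.

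Regulators of the muscle lineages were scarce, apart from Tbx20 of the same role group. As given above, Tbx20 followed the sympathetic neuron markers, and it was at 43.4, 36.3 and 163 CPM in KO 1, KO 2 and KO 3. In WT 1, WT 2 and WT 3 it was at 33.7, 119 and 43.7 CPM. Myod1, Myf5 and Pax7, which mark myoblasts and satellite cells, had no count in any of the 6 libraries, which allows levels up to between 0.111 and 0.135 CPM before TMM scaling. The muscle transcription factors Myog and Myf6 were at no more than 0.091 and 0.35 CPM. The heart factor Nkx2-5 was detected in KO 3 alone, at 0.079 CPM, which is under the limit that a count of 0 allows. Smyd1, a methyltransferase of heart and skeletal muscle, was at 1.38, 1.22 and 0.79 CPM in KO 1, KO 2 and KO 3, against 0.27, 0.81 and 0.50 CPM in WT 1, WT 2 and WT 3 (log2 fold change 1.07, SE 0.46, edgeR adjusted p = 0.629). The cardiac factor Gata4 was at 0.86, 0.70 and 0.79 CPM in KO 1, KO 2 and KO 3, against 0.36, 0.067 and 0.77 CPM in WT 1, WT 2 and WT 3. Tbx5, another, was at 0.65, 0.70 and 0.63 CPM in the KO libraries, against 1.09, 0.30 and 1.28 CPM in the WT libraries in the same order. Gata4 and Tbx5 had log2 fold changes of 0.97 and -0.42 (SE 0.73 and 0.54, edgeR adjusted p = 0.795 and 0.904). Gata4 was above every WT library in KO 1 and KO 3 but not in KO 2, and the groups overlapped in Smyd1 and Tbx5 as well.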

How the data were processed

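Libraries came from brachiocephalic arteries of 3 KO and 3 WT mice. The authors deposited read counts as counted, without scaling. These were made, per the file headers, by featureCounts 1.4.6-p4 on UCSC mm9 exons grouped by gene name, without options for strand, pairs or multi-mapping reads. The deposited exon length of each gene, another column, was used only to compute TPM and to group genes by length. STAR (listed as version 3.0), CASAVA, Subread and DESeq2 are named, per the submitters' processing notes. Of alignments, 32.6% to 36.9% were assigned to genes and 0.347% to 0.448% were ambiguous, and reads of an antisense or overlapping partner cannot be told apart. There were 0 columns of values left unused.

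Groups came from the sample titles, and no pair of libraries agreed within sampling noise (chi-square per gene of at least 22.7). KO was compared with WT in edgeR 4.0.16 and R 4.3.3 (glmQLFit, glmQLFTest, two-sided, TMM, filterByExpr with a minimum count of 10), with Benjamini-Hochberg adjustment over the 15937 genes tested and a threshold of 0.05. CPM are TMM-scaled, and the fit was tested on simulated data. DESeq2 1.42.0, limma-voom (limma 3.58.1), other scalings, other filters, a threshold of 0.1, a replicate block and fits without single libraries were also run. Members, lists, role groups and settings were chosen with earlier results of these data known, and the length classes and ratios after the values were seen. Values per library are given for the 6 fast, 3 slow, 3 shared and 6 cardiac members with the highest mean TPM, for members without overlap, and for up to 3 other striated genes per role by smallest unadjusted p, of which a single gene is not reported here. Further genes were picked with their values in view.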

Additional observations from a re-analysis of the deposited data

How the results depend on the processing

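No member was called under any alternative run, by edgeR, DESeq2 or limma-voom, and edgeR called 0 genes with each library left out in turn. Over all genes, 45 were called by DESeq2 and 1 without KO 3 and WT 2, and DESeq2 called 1 of the other striated muscle genes. The median log2 fold change of the fast and pan-skeletal genes ran from -0.29 to 2.71 with each library left out, with its sign turned without KO 1, and that of the cardiac genes from 0.13 to 1.49. Of 269 values of single named members under alternatives, 10 changed sign, all with a library left out. With a library left out the log2 fold change ran from -0.52 to 3.42 for Acta1, -0.56 to 2.39 for Tnni2, -0.40 to 2.68 for Tnnt3 and -1.07 to 4.12 for Tnnc2, each below 0 without KO 1. It ran from -0.10 to 2.94 for Myl7 and -0.23 to 1.40 for Myl4, each below 0 without KO 2, from -0.16 to 0.68 for Tnnt1, below 0 without WT 2, and from -0.56 to 1.11 for Myh7. Of those that kept their sign, it ran from 0.18 to 3.62 for Myh6, 0.83 to 5.37 for Mybpc1, 0.77 to 2.79 for Ttn, 0.13 to 1.44 for Tnni3, 0.37 to 1.49 for Tnnt2, 0.44 to 1.41 for Myl1, 0.095 to 0.78 for Eno3, 0.78 to 1.58 for Tnnc1 and 0.41 to 0.71 for Ryr2. The number of members with an unadjusted p under 0.05 ran from 1 (without WT 2) to 9 (without KO 3), against 4.72% and 8.30% of all genes. Adjusted p-values of the named members ran from 0.190 (Mybpc1) to 1.00 over all alternatives, and the causes were not tested. The replicate numbers did not pair the samples (correlations of deviations 0.43, -0.68 and -0.58 for numbers 1, 2 and 3), and with a replicate block 0 genes were called, 11 of the 34 members had an unadjusted p under 0.05, against 4.65% of all genes, and the medians were 1.08 for fast and 0.81 for cardiac genes. Depth limits the genes near 3 counts per library, Tnni1 and Mybpc1 in WT among them.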
